A study of Mus musculus with 10 samples.

Results

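Across the 10 libraries of this study, 415 of 53090 counted gene IDs held reads although no gene is annotated on the strand opposite them, and these IDs are described here. An ID was kept if GENCODE mouse release M21 (build GRCm38) places it on a nuclear chromosome, if its exons overlap no gene body on the other strand, and if it does not lie within 5 kb downstream of a gene on that strand. It also had to have a mean count of 5 or more over the 10 libraries and to lie over 5 Mb from Stip1 on chromosome 19. All conditions but the mean count left 31715 IDs, called unopposed below, of which 27559 had 0 counts in every library and 4156 had a count. The 415 were selected on the mean count from these, so levels are given as a description, with no test.

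RNA came from a small piece of cortex of mice on a C57BL/6 background. The 5 wt/wt animals carried the unaltered Stip1 locus and were 442 to 663 days old. The 5 dTPR/dTPR animals, 541 to 630 days old, were homozygous for an allele of Stip1 without the TPR1 domain of STI1, a co-chaperone that links HSP70 and HSP90. The allele is in the germ line of whole animals, and the labels name no control beyond wt/wt mice and no batch. Each animal gave 1 library, with totals of 667751 to 927242 counts in wt/wt and 689226 to 924559 in dTPR/dTPR. A count of 3 equalled between 3.24 and 4.49 CPM, the count scaled to the library total. Stip1 itself was counted 0, 4, 0, 8 and 0 times in wt/wt animals 1 to 5 and 0, 8, 0, 5 and 0 times in dTPR/dTPR animals 1 to 5, so neither the deletion nor the labels could be checked from it.

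Transcription of mammalian genes is bounded loosely. RNA polymerase runs on past the cleavage and polyadenylation site before it ends, many promoters also fire in the reverse direction, and long noncoding RNAs often lie antisense to protein-coding genes. Each of these can place RNA on the strand opposite to an annotated gene, and a catalogue of genes holds only part of it. How a stranded count is assigned depends on the setting of the counter. An ID here is therefore a stretch of annotated exons at which reads were counted. Its symbol names the gene on the annotated strand and does not tell which strand the RNA came from. The strand setting is not given in the sources used here. Whether reads of an annotated gene were counted at the ID opposite it was not tested.

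The strand matters because most counts in these libraries sat opposite to annotated genes. IDs with exons set against exons of an opposite gene and a mean count of 5 or more, 3173 in number, held 71.2% of all counts and had a median of 26. The unopposed IDs looked up for a chosen set of genes that cortex is known to express strongly had means under 5, the highest 4.6 at Ywhaz. Other such genes, among them Eno2 and Tpt1, were among the 415. Camk2a, a synaptic kinase of excitatory neurons, had a mean count of 4.3, Snap25, a protein of vesicle fusion, 1.9, Actb, cytoplasmic actin, 0.3, and Hspa8, the constitutive HSP70, 0. The 415 counted unopposed IDs together held 0.887% of all counts. That share was 0.898% ± 0.0575 in wt/wt and 0.878% ± 0.0642 in dTPR/dTPR cortex (SD, n = 5 each), with ranges of 0.825% to 0.978% and 0.810% to 0.980% that overlapped.

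A second catalogue, RefSeq, places a gene body on the other strand of 87 of the 415, for 60 of them a gene with no entry of that name in M21. Promoters are shown for the RefSeq genes opposite 4 of these 60, those with the highest mean counts, because they are starts of opposite-strand genes that M21 does not hold. That choice was made after the values were seen. Each runs from 250 bases before the start to 50 after it, in build GRCm38.p6, read 5′ to 3′ on the RefSeq gene's strand. Capitals mark TATAAA (as in a TATA box), the motif CCAAT (as in NF-Y sites) and the motif CCGCCC (as in a GC box), searched on both strands, and matches may overlap. The window of Gm39080 is chr7:119730554-119730853 (+), and this gene faces Gm44866, a long intergenic noncoding RNA. That of Gm20346 is chr9:62344598-62344897 (-), inside Anp32a, an acidic nuclear phosphoprotein gene. That of Gm32404 is chr6:124857557-124857856 (+), beside Gpr162, an orphan receptor gene. That of Gm34538 is chr9:37037063-37037362 (+), inside Pknox2, a homeobox transcription factor gene. The first listed window is shown where RefSeq gives a gene several.
Gm39080: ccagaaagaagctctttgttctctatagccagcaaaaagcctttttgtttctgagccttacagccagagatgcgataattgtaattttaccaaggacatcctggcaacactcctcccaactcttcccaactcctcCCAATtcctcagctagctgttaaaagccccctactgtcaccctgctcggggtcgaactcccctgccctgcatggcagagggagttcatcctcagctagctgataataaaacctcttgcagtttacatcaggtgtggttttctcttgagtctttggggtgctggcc
Gm20346: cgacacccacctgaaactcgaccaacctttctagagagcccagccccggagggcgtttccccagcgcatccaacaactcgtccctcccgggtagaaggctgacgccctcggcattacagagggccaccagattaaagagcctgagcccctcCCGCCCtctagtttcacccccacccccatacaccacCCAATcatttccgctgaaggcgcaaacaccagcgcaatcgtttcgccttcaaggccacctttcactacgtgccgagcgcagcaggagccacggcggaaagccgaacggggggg
Gm32404: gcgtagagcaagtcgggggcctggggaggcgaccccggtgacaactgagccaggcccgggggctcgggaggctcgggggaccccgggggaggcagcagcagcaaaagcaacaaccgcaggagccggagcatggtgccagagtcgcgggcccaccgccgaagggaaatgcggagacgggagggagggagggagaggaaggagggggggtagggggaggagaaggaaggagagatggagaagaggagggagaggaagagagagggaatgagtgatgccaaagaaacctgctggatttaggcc
Gm34538: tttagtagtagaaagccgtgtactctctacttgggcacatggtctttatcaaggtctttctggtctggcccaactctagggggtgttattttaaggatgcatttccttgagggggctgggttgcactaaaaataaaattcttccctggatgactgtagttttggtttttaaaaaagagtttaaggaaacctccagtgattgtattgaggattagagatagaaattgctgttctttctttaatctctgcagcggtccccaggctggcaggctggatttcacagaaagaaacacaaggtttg

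The window of Gm20346 held 22 CpG, that of Gm32404 16, that of Gm39080 3 and that of Gm34538 2, against a median of 7 over all 32851 promoters of the table. Gm32404 and Gm34538 held none of the 3 motifs in these windows. Over the 84 promoters of opposite genes without an M21 entry, TATAAA occurred in 4.76%, CCAAT in 17.9% and CCGCCC in 26.2%. Over all promoters of the table the shares were 13.6%, 37.4% and 35.7%. The 84 had a median of 10 CpG. Opposite genes that M21 does hold had 35 promoters, with a median of 19 CpG. The 3 motifs occurred in 0%, 40.0% and 42.9% of these 35. These shares describe letters in a window and say nothing of a factor.

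Counts at these IDs were low. The median of their mean counts was 9.4, 223 lay under 10, 117 between 10 and 20, 42 between 20 and 50 and 33 at 50 or above. The highest mean was 199, only 4 IDs passed 100, and the 10 highest held 16.7% of the counts of the 415. At the edge of the rule, Adra1a, an adrenergic receptor gene, Kcng1, a potassium channel subunit gene, and Nbl1, a gene for a secreted BMP antagonist, each had a mean of 5.0. Akap12, a kinase anchor gene, Arhgap21, a gene for a GTPase-activating protein, and Atg4c, an autophagy protease gene, stood just outside it with means of 4.9. There were 8 unopposed IDs at 5.0 and 11 at 4.9.

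Of the 415 IDs, 349 were protein-coding (84.1%, against 35.2% of the 31300 unopposed IDs under a mean of 5), 22 were long intergenic noncoding RNAs and 20 were unconfirmed transcripts that M21 lists for experimental test. Processed pseudogenes made up 11 (2.65%, against 20.2%). Their exons were longer in sum, with a median of 4223 bases against 983, and among protein-coding IDs 4712 against 3050. A longer ID offers more bases at which a read can fall, and the share of that in the choice was not tested. Zinc finger genes of the Zfp series gave 6 of the IDs (1.45%, against 0.754% of those under a mean of 5) and solute carriers 10 (2.41%, against 0.588%). Potassium channel genes gave 7 (1.69%, against 0.150%), namely Kcna1, Kcnc4, Kcnf1, Kcng1, Kcnk13, Kcnk9 and Kcns2. The part of the larger protein-coding share in these values was not tested. Olfactory receptor genes of the Olfr series gave 1 of the 415 and 1199 of the unopposed IDs under a mean of 5.

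The highest mean count belonged to 3300002P13Rik (ENSMUSG00000107585.1, chr7:3421665-3423445, - strand), a long intergenic noncoding RNA of 2 exons. It was counted 177, 240, 122, 172 and 241 times in wt/wt animals 1 to 5 and 158, 132, 184, 398 and 167 times in dTPR/dTPR animals 1 to 5. One dTPR/dTPR animal stood far above all others, and the groups overlapped. The ID lies 6.02 kb past the 3′ end of Cacng8, a gene for an AMPA receptor auxiliary subunit on the other strand, and the start of Cacng6, a related calcium channel subunit gene that points away from it, is 750 bases off.

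Yy1 (ENSMUSG00000021264.12, chr12:108792973-108820148, + strand), a zinc finger transcription factor gene, came next with a mean of 180. Its counts were 187, 190, 241, 155 and 167 in wt/wt and 203, 70, 192, 220 and 173 in dTPR/dTPR animals. The second dTPR/dTPR animal was low and the other 9 lay between 155 and 241. The nearest opposite 3′ end was 5.73 kb away, at Slc25a29, a mitochondrial carrier gene. Qrich1, with a mean of 92.1, lay 5.37 kb past Ndufaf3, a gene for an assembly factor of respiratory complex I, and Il17d, a cytokine gene with a mean of 86.3, lay 6.43 kb past Eef1akmt1, a lysine methyltransferase gene.

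Ddx5 (ENSMUSG00000020719.14, chr11:106780355-106789185, - strand), an RNA helicase gene with a mean of 132, shows how the 2 catalogues differ. Its counts were 162, 115, 158, 113 and 191 in wt/wt and 111, 74, 134, 131 and 130 in dTPR/dTPR animals, and the groups overlapped. M21 places the start of Cep95, a centrosome protein gene, 67 bases from that of Ddx5 and pointing away, while the RefSeq body of Cep95 reaches over exons of Ddx5. Likewise 4930516B21Rik, a noncoding RNA with a mean of 76.8, lies 5.28 kb past the 3′ end of Acvr2b, an activin receptor gene, in M21 and opposite its body in RefSeq. Wnt2b, a WNT ligand gene with a mean of 69.0, lies 15.2 kb past St7l in M21 and opposite it in RefSeq.

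Gm44866 (ENSMUSG00000109233.1, chr7:119720811-119735760, - strand) had only 391 bases of exon and a mean of 88.9, or 227 counts per kb of exon, the most of any ID with 200 bases of exon or more. It faces Gm39080, whose promoter is shown above. The counts were 68, 69, 168, 47 and 73 in wt/wt and 137, 70, 66, 94 and 97 in dTPR/dTPR animals, with the third wt/wt animal above the rest. The next IDs per kb of exon were 3300002P13Rik at 182, Il17d at 67.7, 4930516B21Rik at 64.3 and Gm45453, an unconfirmed transcript, at 61.1. The median of the 415 was 2.55 per kb. Anp32a, Pknox2 and Gpr162, which face the other genes whose promoters are shown, had means of 60.5, 60.5 and 55.7.

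**Figure D1:**
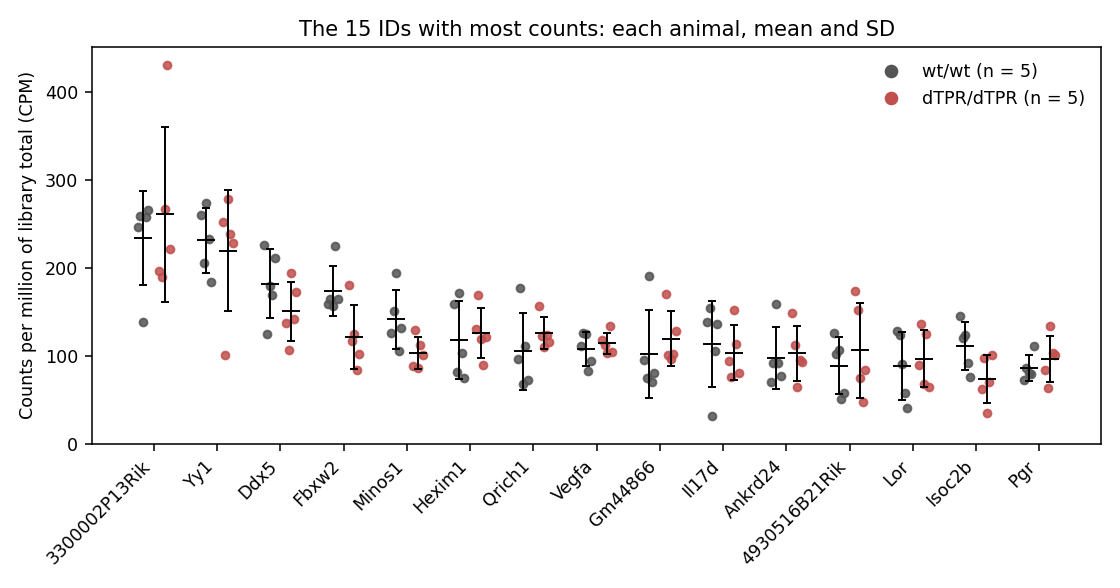
CPM (linear axis) at the 15 unopposed IDs with the highest mean count, with a point for each animal, the mean as a bar and the SD as whiskers (n = 5 a group). The wt/wt and dTPR/dTPR points overlap at each of the 15 IDs, and single animals stand apart at 3300002P13Rik (430.5 CPM in 1 dTPR/dTPR animal) and Yy1 (100 CPM in another).

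One of the 415 was a microRNA gene, Mir208a (chr14:54949060-54949142, - strand), best known as a microRNA of heart muscle. It is shown because 83 annotated bases held a mean of 27.6 counts, and it was singled out after its values were seen. It was counted 31, 67, 25, 16 and 11 times in wt/wt and 41, 15, 9, 29 and 32 times in dTPR/dTPR animals, so every library held some and the groups overlapped. The hairpin is given first, then both mature forms with the seed, bases 2 to 8, in capitals. A count at the ID does not tell which strand the RNA came from.
Mir208a hairpin: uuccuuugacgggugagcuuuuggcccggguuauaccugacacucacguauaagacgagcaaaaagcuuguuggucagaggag
mmu-miR-208a-3p: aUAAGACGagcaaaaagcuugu
mmu-miR-208a-5p: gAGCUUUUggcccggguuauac

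The position of the IDs was read against the nearest gene on the other strand that ends before the ID begins, measured from its 3′ end. All 415 lie over 5 kb past such an end by the rule. The median distance was 20.9 kb, against 55.5 kb for unopposed IDs under a mean of 5. Among protein-coding IDs the medians were 20.5 and 37.7 kb. Between 5 and 10 kb lay 108 of the 415 (26.02%, exact binomial 95% interval 21.9% to 30.5%), against 9.18% of the less counted IDs. Among protein-coding IDs these shares were 25.8% and 14.0%. Over 50 kb away were 112 (26.99%, against 53.1%). The exon length of an ID and its biotype moved with its count as well, and their part in these shares was not tested.

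**Figure D2:**
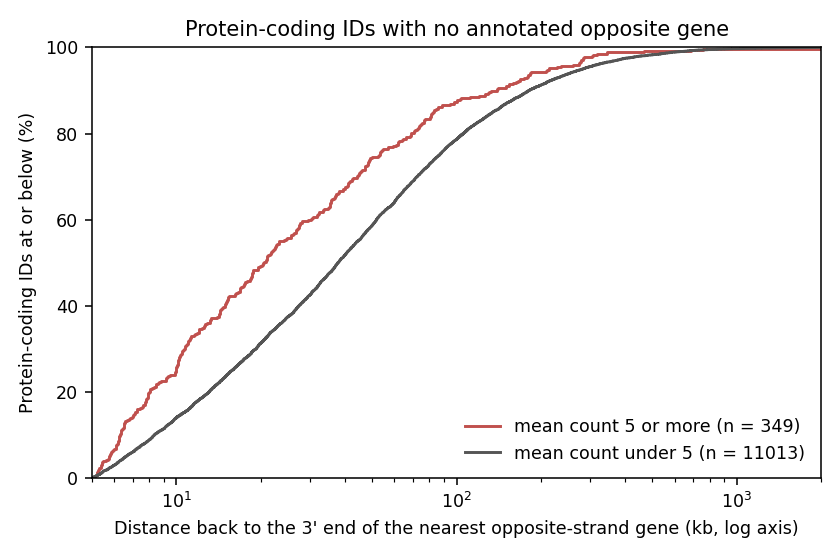
Cumulative share of protein-coding unopposed IDs (percent) by distance to the nearest opposite-strand 3′ end (kb, log axis), for IDs with a mean count of 5 or more and for those under it. The line of the counted IDs runs above the other over most of its length, with medians of 20.5 and 37.7 kb.

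RefSeq genes were looked for opposite the counted and the less counted IDs alike. A RefSeq gene body, introns included, faced exons of 87 of the 415 (20.96%, exact binomial 95% interval 17.2% to 25.2%) and of 4.75% of the less counted IDs. Among protein-coding IDs the shares were 19.2% and 7.09%. The 87 IDs faced 90 RefSeq genes, of which 60 were long noncoding RNAs and 30 protein-coding. Of the 90, 54 were noncoding and without an entry in M21, and 24 were protein-coding genes of M21 whose body is longer in RefSeq. For 29 of the 415 the RefSeq gene on the other strand was an M21 gene, coding or noncoding, with a longer body in RefSeq, and 2 of the 415 faced genes of both kinds, in M21 and not. A strand was known for 27025 of 49997 RefSeq genes (54.1%), so genes without one could not be matched.

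Another arrangement was a pair of divergent starts. The start of a gene on the other strand, pointing away, lay within 1 kb of 60 of the 415 (14.5%, against 6.03%). Among protein-coding IDs the shares were 13.8% and 9.63%. A whole M21 gene lay inside an intron on the other strand for 35 of the 415, and 20 shared exon bases with another gene on their own strand, so that their reads could have been split or left uncounted. Within 50 kb on the same strand, 27 had another of the 415.

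**Figure D3:**
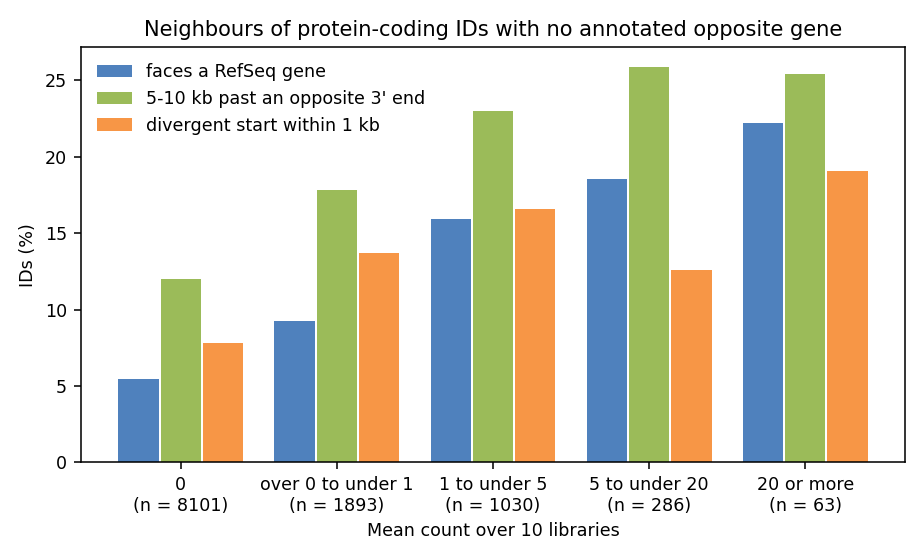
Percent of protein-coding unopposed IDs that face a RefSeq gene, lie 5 to 10 kb past an opposite 3′ end, or have a divergent start within 1 kb, by mean count over the 10 libraries (5 bins, n under each). The RefSeq bars go from 5.47% at a count of 0 to 22.2% at 20 or more, the distance bars from 11.99% to 25.4%, and the divergent bars from 7.80% to 19.1% with a dip to 12.6% at 5 to under 20.

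At the 3 higher bins of all unopposed IDs the share facing a RefSeq gene was 15.9% (1 to under 5), 20.3% (5 to under 20) and 24.0% (20 or more), and it was 3.76% at a count of 0. The share 5 to 10 kb past a 3′ end went from 8.01% at 0 to 28.0% at 20 or more. Median exon length went from 849 to 4305 bases over the same bins. Within the 415, the kind of neighbour went with little difference in level. The median mean count was 10.2 with a RefSeq opposite gene and 9.2 without, 9.9 at 5 to 10 kb, 9.5 at 10 to 50 kb and 8.5 over 50 kb.

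At least 1 of the 3 arrangements (a RefSeq opposite gene, a 3′ end within 10 kb, a divergent start within 1 kb) held for 207 of the 415, and none for 208. Of the 208, 78 were also over 50 kb from the nearest opposite 3′ end, and these held 17.6% of the counts of the 415. The 5 with the most counts among the 78 were Hexim1, an inhibitor of the elongation factor P-TEFb, Vegfa, the vessel growth factor, Kcnf1, a modifying potassium channel subunit, Meis2, a homeobox factor, and Gm45453. Single-exon IDs were 12 of the 78, among them Hexim1, Kcnf1, Gm45453 and Irf2bpl, a gene for a RING domain protein. Those named from the 78 that are not among the 10 highest means, the 5 highest per kb or the listed genes were chosen after their values were seen.

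Hexim1 (ENSMUSG00000048878.6, chr11:103116231-103119725, + strand) was counted 114, 75, 151, 69 and 68 times in wt/wt and 105, 118, 82, 83 and 92 times in dTPR/dTPR animals. The nearest opposite 3′ end was 71.0 kb away. Vegfa (chr17:46016993-46032369, - strand), 53.1 kb from such an end, was counted 80, 117, 110, 55 and 85 times and 95, 78, 71, 123 and 79 times. Both were counted in every library, from 68 to 151 times at Hexim1 and from 55 to 123 times at Vegfa, and the groups overlapped at each.

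Kcnf1 (chr12:17172100-17176888, - strand), 97.6 kb from an opposite 3′ end, was counted 80, 49, 37, 100 and 94 times in wt/wt and 130, 7, 86, 65 and 37 times in dTPR/dTPR animals. Kcna1, a gene for a voltage-gated potassium channel of axons, was 303 kb from one and had a mean of 50.4. Pkd2, a polycystin cation channel gene, was 307 kb from one and had a mean of 45.3. No gene with a known strand in either catalogue lies opposite the exons of these 3.

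Genes of known cell types were looked up by the symbol of the ID, over 15 lists with 260 symbols. The lists held 140 unopposed IDs, of which 6 (4.29%) were among the 415, against 3.07% of all protein-coding unopposed IDs. Of the 140, 58 had 0 counts in every library, and the highest mean among those outside the 415 was 4.8. The abundant neuron list gave 1 of 22, the excitatory neuron list 1 of 16, the oligodendrocyte list 1 of 10, the housekeeping list 1 of 12 and the HSP70-HSP90 chaperone list 1 of 12. The inhibitory neuron, astrocyte, oligodendrocyte precursor, microglia, vessel, choroid plexus and ependyma, blood, long noncoding RNA and structural small RNA lists gave 0. At the symbols of the choroid plexus and ependyma list and of the blood list, every unopposed ID was at 0.

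Bhlhe22 (ENSMUSG00000025128.7, chr3:18054174-18057517, + strand), a transcription factor gene of excitatory neurons with a single exon, had a mean of 60.0. Its counts were 89, 67, 22, 69 and 69 in wt/wt and 88, 16, 66, 67 and 47 in dTPR/dTPR animals. The third wt/wt and the second dTPR/dTPR animal were low, and the other 8 were between 47 and 89. Its nearest opposite 3′ end was 14.4 kb away, at Cyp7b1, an oxysterol hydroxylase gene. Also among them were Hspa9, the mitochondrial HSP70, with a mean of 17.2, Tpt1, a translationally controlled protein, with 11.5, Eno2, the neuronal enolase, with 6.2, and Trf, the transferrin of oligodendrocytes, with 5.8.

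Counts at the 415 were spread less evenly over libraries than counts at IDs that face an exon. A count in all 10 libraries was found for 147 (35.4%), against 69.3%. At mean counts of 5 to 50 the shares were 30.1% and 52.2%. In that range 38.6% of IDs that face an intron only and 44.6% of those within 5 kb downstream of an opposite gene were counted in all 10. The median share of an ID's counts in its highest library was 25.6%, against 22.7%, 24.8% and 23.6% in those 3 classes. Over 50% of the counts came from 1 library at 10 of the 415 (2.41%). At all means of 5 or more, this held for 2.39% of IDs that face an intron only. It held for 1.01% of those that face an exon and 0.425% of those downstream. The 10 were Acvr1b, Stc2, Racgap1, Bok, Ankk1, Camta2, Lman1l, Arhgap40, Gm8494 and Gm47235.

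Ankk1 (chr9:49415194-49427021, - strand), a kinase gene, was singled out of these 10 after its values were seen. It lies 7.02 kb past the 3′ end of Drd2, the dopamine receptor of striatal neurons. It was counted 0, 9, 59, 26 and 0 times in wt/wt animals 1 to 5 and 0, 19, 0, 0 and 3 times in dTPR/dTPR animals 1 to 5. Sums were taken over 4 IDs that face exons of Ppp1r1b, Penk, Rarb and Syndig1l, from a striatal neuron list of 14 symbols. IDs that face the other symbols of that list were not summed. The 4 IDs summed to 1032, 3445, 5306, 2511 and 803 CPM in the wt/wt animals. In the dTPR/dTPR animals they summed to 730, 1699, 875, 388 and 2189 CPM. The 5 libraries with a count at Ankk1 were the 5 with the highest sums, from 1699 CPM up, and the 5 at 0 were those from 1032 CPM down.

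Cad (chr5:31054780-31078479, + strand), a pyrimidine synthesis enzyme gene also chosen after its values were seen, lies 7.63 kb past Slc30a3, the zinc transporter of glutamatergic synaptic vesicles. It was counted 67, 38, 3, 26 and 62 times in wt/wt and 105, 0, 122, 69 and 88 times in dTPR/dTPR animals. The 2 lowest, the third wt/wt and the second dTPR/dTPR animal, were counted at Ankk1 59 and 19 times. Other libraries with high sums at the 4 IDs were not as low at Cad. The fifth dTPR/dTPR animal, at 2189 CPM against 1699 in the second, had 88. The second wt/wt animal, at 3445 CPM, had 38. Esam, an adhesion molecule gene also chosen after its values were seen, lies 6.17 kb past Nrgn, the neuronal calmodulin-binding protein gene. It was at 2 in the second dTPR/dTPR animal and between 19 and 55 in the other 9. The second dTPR/dTPR animal was the lowest of the 10 by CPM at 14 of the 75 IDs with a mean of 20 or more (18.7%), and the second wt/wt and the first dTPR/dTPR animal at 10 each (13.3%). Over the other 2029 IDs with such a mean, wt/wt animals 2 and 3 were the lowest most often (15.1% and 14.4%), and the second dTPR/dTPR animal was at 11.9%. The part of the dissected tissue in these values was not tested, and fewer cells of a type and less RNA per cell cannot be told apart in bulk RNA.

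**Figure D4:**
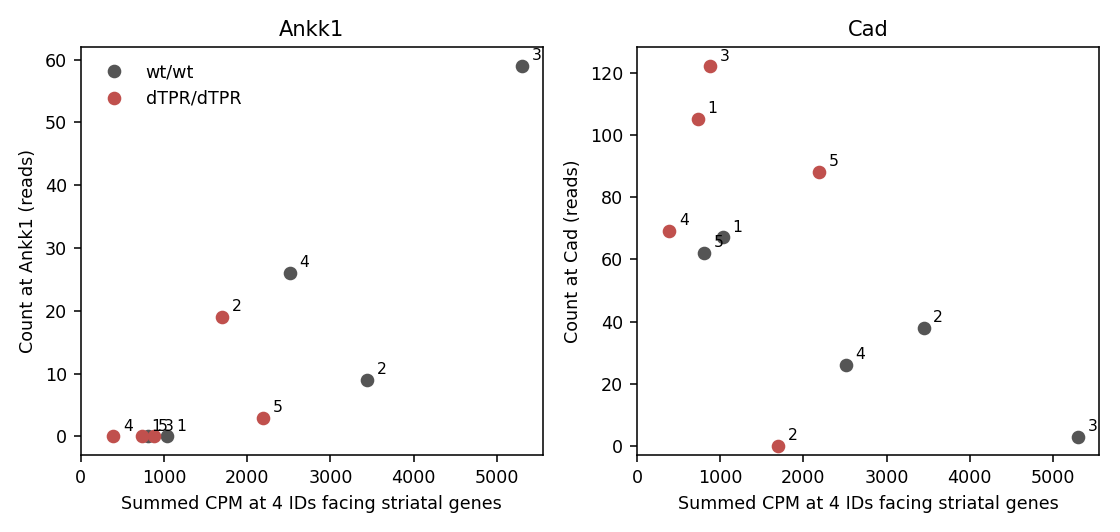
Counts at Ankk1 (left) and Cad (right) against the summed CPM of the 4 IDs that face Ppp1r1b, Penk, Rarb and Syndig1l. Each library is 1 point with the animal number beside it. At Ankk1 the 5 libraries up to 1032 CPM are at 0 and wt/wt animal 3, at 5306 CPM, is at 59, while at Cad wt/wt animal 3 and dTPR/dTPR animal 2 are the 2 lowest, at 3 and 0.

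The comparison of dTPR/dTPR with wt/wt cortex asks which counts differ when STI1 lacks TPR1. No ID of the 415 passed in edgeR's quasi-likelihood test at an adjusted p of 0.05, with 181 of them tested among 3027 IDs and 234 below the filter on low counts. Over all tested IDs 0 passed as well (0.0%). DESeq2 also called 0. At an unadjusted p under 0.05 in edgeR there were 4 of 181 (2.21%), against 2.54% of all tested IDs. Of these, 2 were positive (background 1.19%) and 2 negative (background 1.35%), and all had an adjusted p of 0.997. These shares were close to the background.

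Mras (ENSMUSG00000032470.16, chr9:99385420-99437381, - strand), a gene for a small GTPase of the RAS family, had the smallest p. It was counted 14, 0, 20, 17 and 17 times in wt/wt and 39, 48, 26, 27 and 28 times in dTPR/dTPR animals. The groups did not overlap (1 of 181 in this direction, 0.552%, against 0.264% of all tested IDs), at 17.26 ± 10.02 CPM and 44.21 ± 15.35 CPM (SD, n = 5 each). The log2 fold change was 1.38 ± 0.64 (SE; edgeR adjusted p = 0.997), with 5 of 5 dTPR/dTPR animals above the wt/wt mean. It was 1.04 without the second wt/wt animal, where the ID had 0 counts, and lay between 1.04 and 1.94 over all settings tried. Nhlrc2 (chr19:56548261-56603503, + strand) was the only ID of the 181 whose groups did not overlap in the negative direction (0.552%, against 0.165%). In either direction the shares were 1.10% and 0.429%. Its counts were 17, 15, 20, 15 and 16 and 13, 7, 7, 9 and 6. The groups nearly touched in CPM, at 15 of 927242 counts in wt/wt animal 2 and 13 of 807048 in dTPR/dTPR animal 1. Nhlrc2 was not among the 10 IDs with the smallest p.

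Fbxw2 (chr2:34804514-34826311, - strand), a gene for an F-box protein of ubiquitin ligases and the fourth by mean count, was counted 114, 152, 138, 150 and 149 times in wt/wt and 145, 81, 86, 77 and 77 times in dTPR/dTPR animals. The groups overlapped through the first dTPR/dTPR animal. Its log2 fold change was -0.51 ± 0.24 (SE; edgeR adjusted p = 0.997), at 174 ± 28.8 CPM and 121 ± 36.3 CPM (SD, n = 5 each), and it lay between -0.69 and -0.41 over the settings tried. Gm6939, a pseudogene, was counted 39, 33, 104, 34 and 25 times and 9, 19, 35, 30 and 11 times. Its value of -1.06 ± 0.50 became -0.60 without the third wt/wt animal, whose 104 stood above the other 9 libraries.

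Fam205c, which faces Phf24 in RefSeq, was counted 17, 6, 8, 14 and 26 times in wt/wt and 34, 7, 52, 32 and 29 times in dTPR/dTPR animals, with a log2 fold change of 1.20 ± 0.57 (SE; edgeR adjusted p = 0.997). The groups overlapped through the second dTPR/dTPR animal. Over the 10 IDs with the smallest p, the other 6 were Isoc2b (-0.59 ± 0.32), Gramd2 (0.94 ± 0.51), Polq, a DNA polymerase gene (0.62 ± 0.34), Il17rd, a receptor gene (-1.40 ± 0.77), Minos1, a gene of the mitochondrial cristae (-0.45 ± 0.26), and Ttl, the tubulin tyrosine ligase gene (0.94 ± 0.58), as log2 fold changes with SE. All 6 had an adjusted p of 0.997 in edgeR. Single animals moved some of these values. Gramd2 had 0.61 without the third dTPR/dTPR animal. Ttl had 0.62 without the second dTPR/dTPR animal, and 0.31 without that animal and the third wt/wt animal. Gm44866, opposite Gm39080, had 0.23 ± 0.31, which became 0.59 without the third wt/wt animal, 0.079 without the first dTPR/dTPR animal, and 0.11 to 0.14 without wt/wt animal 2, 4 or 5. With the third wt/wt and the second dTPR/dTPR animal both left out it was 0.64. Ddx5, opposite Cep95, had -0.25 ± 0.23, and -0.16 without the second dTPR/dTPR animal.

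**Figure D5:**
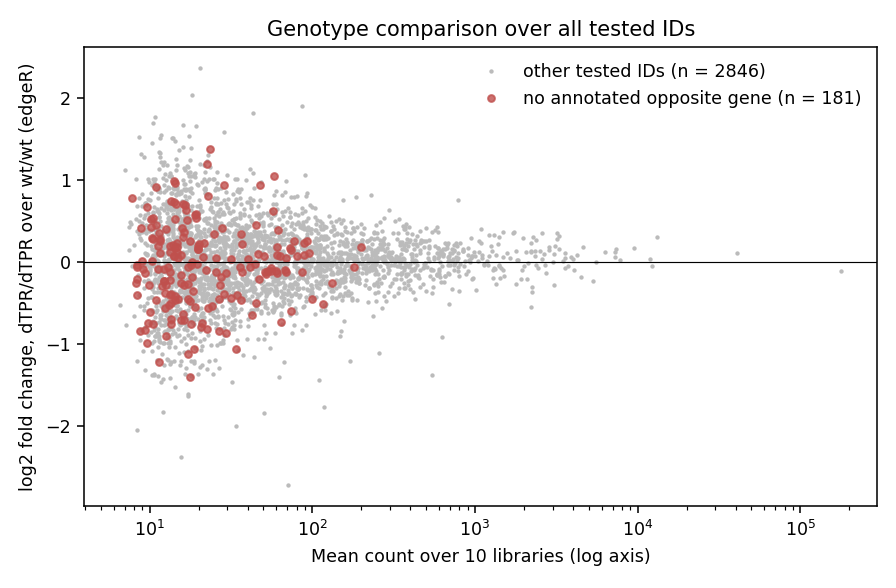
Fitted log2 fold change of dTPR/dTPR over wt/wt against mean count (log axis) for all tested IDs, with the 181 tested unopposed IDs in red and the others in grey. The red points lie among the grey ones at like counts, from -1.40 to 1.38, and 0 IDs passed the adjusted threshold.

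Of the 181 fold changes, 83 were above 0 (45.9%), against 52.1% of all tested IDs, with a median of -0.06 against 0.02. An absolute log2 fold change over 1 was found for 8 (4.42%), against 4.99%. The median SE was 0.65, against 0.47 over all tested IDs, so a change of a given size was estimated less precisely here. Of the 42 tested IDs with a RefSeq opposite gene, 20 were above 0 (median -0.05). Of the 54 with a 3′ end at 5 to 10 kb, 27 were above 0 (median -0.01).

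The list genes among the 415 gave the values -0.12 ± 0.42 (Bhlhe22), -0.27 ± 0.64 (Hspa9) and 0.28 ± 1.05 (Tpt1) as log2 fold change with SE, each with an edgeR adjusted p of 0.997. The sign of each of these 3 turned under at least 1 setting. Eno2 and Trf were below the filter of the main fit and have no fitted value there. Eno2 was counted 2, 5, 0, 2 and 3 times in wt/wt and 5, 10, 7, 13 and 15 times in dTPR/dTPR animals, and Trf 1, 14, 10, 5 and 9 times and 1, 1, 4, 3 and 10 times. By CPM the groups did not overlap at Eno2, although its raw counts tie at 5. These were 5 of 927242 counts in wt/wt animal 2 and 5 of 807048 in dTPR/dTPR animal 1. The share of such IDs below the filter was not counted. Fits without that filter included both IDs, and their values are not given here. The 5 animals of a group are separate mice. Reads carry no molecular identifiers, so a count is not a number of independent molecules, and the binomial intervals above cover the number of IDs, not the error of their counts.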

How the data were processed

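RNA of 10 cortex samples, 1 per animal, was prepared with a SENSE total RNA kit and sequenced single-end, per the labels' protocols. The deposited values are raw counts per Ensembl gene ID by the authors, 53090 per library, with 0 rows that name no gene. TopHat, HTSeq and DESeq2 and build GRCm38.p5 are named in the submitters' processing notes. Versions and the strand setting are not given in the sources used here. IDs were placed with GENCODE M21 (52403 found, 687 not). RefSeq tables (GRCm38.p6) gave opposite genes, promoters and microRNAs. RefSeq genes have a strand only through the promoter table. On 16374 protein-coding genes matched by symbol, 99.99% overlapped their M21 gene on the same strand. RefSeq exons were not used.

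All IDs were fitted in edgeR 4.0.16 (R 4.3.3; TMM factors, filterByExpr, quasi-likelihood test, Benjamini-Hochberg over 3027 IDs), and the 415 were read out. CPM here is the count per library total. Alternatives were DESeq2 1.42.0, limma-voom 3.58.1, other factors, filters, windows and count limits, age, a replicate block and each library left out. IDs were named by rule: the 10 highest mean counts, the 5 highest per kb of exon (200 bases or more), the 10 smallest p, the 2 highest of each list, and 3 on each side of the mean of 5. Some named items are not reported here. The IDs and lists were chosen with earlier results of these data known.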

Additional observations from a re-analysis of the deposited data

Results flagged for a closer look

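Groups of 5 animals were taken over the named IDs and over library totals, the share at the 415 and the number of these counted. In 7 of the 62 groups 1 animal stood far from the other 4 by Dixon's test at the 95% level. Chance alone gives this in about 1 in 20 groups (3.1 of 62). In wt/wt cortex, animal 3 was low at 3300002P13Rik (138 CPM) and high at Gm44866 (190 CPM) and at Kcng1 (27.2 CPM), animal 4 was high at Fbxw2 (225 CPM), and animal 2 was low at Mras (0 CPM). In dTPR/dTPR cortex, animal 2 was low at Yy1 (100.4 CPM) and animal 1 was high at Qrich1 (156 CPM).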

How the results depend on the processing

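With the downstream window at 50 kb, 112 IDs met the rule and held 0.199% of all counts, and with it at 10 kb the share was 0.622%. A mean count of at least 2 gave 925 IDs (1.09% of counts) and one of at least 10 gave 192 (0.695%). The share was 0.828% when no gene could face any part of the body and 0.822% when the median had to be 5. Leaving out each animal gave 410 to 425 IDs. The share facing a RefSeq gene was 20.5% to 21.2% without 1 animal and 20.2% to 24.1% under 4 other settings, all chosen after seeing the data.

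No ID of the 415 had an adjusted p under 0.05 in any of 20 other settings. Over all IDs 2 passed, neither among the 415, when no filter on low counts was used. The 4 of 181 with an unadjusted p under 0.05 became 9 of 415 with no filter or with DESeq2 and 7 of 409 with 1 CPM in 5 libraries. More IDs were tested in these 3 settings, so the counts are not a rise in share. They became 0 of 181 with age in the model and 1 to 4 of 197 to 226 without 1 animal. The matching unadjusted share over all IDs is not given for these settings or for those that follow, so these counts cannot be set against a background. With wt/wt animal 3 and dTPR/dTPR animal 2 both left out, a choice made after seeing the data, they became 6 of 192 and 0 passed adjusted. With the replicate block they became 1 of 181, and 0 IDs passed adjusted. Same-numbered animals deviated together little (correlations -0.09 to 0.12, best with the own number for 2 of 5). With 5 animals a group and low counts, these values cannot decide whether the numbers pair animals.

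Of 23 named IDs with a fit, 15 kept their sign in all 20 settings and 8 turned in at least 1, 16 turns in 460. Without 1 animal each, the log2 fold change ran from -0.094 (dTPR/dTPR animal 4 out) to 0.28 at 3300002P13Rik, from -0.16 to 0.11 (dTPR/dTPR animal 2 out) at Yy1, where it was 0.016 without wt/wt animal 3, and from -0.034 (wt/wt animal 5 out) to 0.29 at Hexim1, where it was -0.026 without dTPR/dTPR animal 2. It ran from -0.010 (wt/wt animal 4 out) to 0.17 at Vegfa, from -0.36 to 0.0445 (wt/wt animal 2 out) at Il17d, and from -0.34 to 0.10 (dTPR/dTPR animal 2 out) at Bhlhe22, where it was 0.063 without wt/wt animal 1. It ran from -0.54 to 0.29 (wt/wt animal 1 out) at Hspa9. At Tpt1 it ran from -0.24 (dTPR/dTPR animal 2 out) to 0.65, and it was -0.0007 without wt/wt animal 4. With both doubted animals out it was 0.19 at Yy1 and -0.51 at Tpt1. The replicate block gave 0.025 at Hspa9 and limma-voom -0.54 at Tpt1. The causes of these turns were not tested. Library totals of 667751 to 927242 leave IDs near a mean of 5 imprecise.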
